A study of Mus musculus with 4 samples.

Results

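The CC and CXC chemokine ligands were followed in long bone of mice that lost Lats2 in endothelial cells, a kinase gene of the Hippo pathway. They were taken as every gene whose symbol began with Ccl or Cxcl and a digit, without Cxcl12 and pseudogene symbols. The rule found 36 genes among 53703 features, and 32 of them had at least 10 counts over the barcodes with at least 1000 UMIs (molecular identifiers, each standing for a captured transcript) and at least 800 genes. The 4 that stayed below this minimum were Ccl20, listed at 0, Ccl26 with 1 count, Ccl1 with 3.83 counts and Ccl22 with 4 counts. Of the 32 ligands, 11 lie on chromosome 11, 10 on chromosome 5, 6 on chromosome 4, 2 each on chromosomes 8 and 13, and 1 on chromosome 7.

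Single-cell RNA-seq libraries were made from the metaphysis of femur and tibia at 12 weeks of age, 2 from Lats2iECKO mice and 2 from controls. Lats2iECKO mice were C57/BL6 animals with loxP-flanked Lats2 and the tamoxifen-inducible Cdh5(PAC)-CreERT2 transgene, which is driven by an endothelial promoter, and received tamoxifen when young. The controls were littermates without the Cre transgene that received tamoxifen too, although the labels call them untreated, and both sexes were used. Cells were freed with collagenase and depleted of lineage-positive, CD45+ and CD117+ cells with beads, and the sources used here do not say whether a library pooled animals.

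The 4 libraries held 69636600 to 85899079 UMIs, and after all filters 5119 and 5887 barcodes remained in the Lats2iECKO libraries and 6813 and 6780 in the controls. Median depth was 7574 to 8181 UMIs per barcode, and pairs of libraries shared 6 to 16 barcodes where 4.44 to 6.80 were expected by list size. In endothelial-like cells Lats2 was at 91.6 and 96.8 CPM (counts scaled to a common total for each class and library) in the Lats2iECKO libraries and at 134 and 122 CPM in the controls, and Cre-ERT2 was at 54.9 and 48.5 CPM against 0.677 and 0.886 CPM. Lats2 was thus lower by a log2 fold change of -0.36 (SE 0.0825, edgeR adjusted p = 0.00504), although 3′ reads outside the deleted part do not measure the deletion. With 2 libraries per group an exact permutation test cannot go below p = 0.333, so all p-values came from edgeR's quasi-likelihood test over all genes of a class with Benjamini-Hochberg adjustment, and a ligand was called where the adjusted p was at most 0.05.

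Chemokines are small secreted proteins that bind G protein-coupled receptors on leukocytes and direct where these cells move. In bone marrow the best known is Cxcl12, which reticular stromal cells make and which holds hematopoietic stem cells and B cell progenitors in place, whereas inflammatory ligands such as Cxcl1 and Ccl2 draw neutrophils and monocytes and are induced by IL-1, TNF and other signals through NF-kappaB. Cxcl9, Cxcl10 and Cxcl11 share the receptor Cxcr3 and are induced by interferons, and Ccl19, Ccl21 and Ccl25 are homeostatic ligands that guide lymphocytes.

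Barcodes were assigned to classes by the share of fixed marker genes detected, and no ligand was among the markers. Reticular-like cells (Lepr, Adipoq, Kitl and others) numbered 577 and 710 in the Lats2iECKO libraries and 1824 and 1764 in the controls, 4875 in all, of which 305 lay near the threshold of the assignment. Their median cell held 90% of the 10 reticular markers, which the assignment itself used. The other classes were metaphyseal stromal-like, osteoblast-like, endothelial-like, smooth muscle and pericyte-like, chondrocyte-like and fibroblast-like cells, and a small leukocyte-like class of 29 and 38 against 111 and 97 cells whose median cell held all markers of basophils and mast cells. A further 4923 barcodes met no assignment and entered no test. They made up 23.05 and 24.6% of the barcodes in the Lats2iECKO libraries and 16.3 and 17.5% in the controls. The part of this difference in the values below was not tested. All levels below are CPM of the summed counts of a class in 1 library. Such a sum cannot tell fewer cells with a transcript from less transcript per cell. Counts were not divided by gene length, so levels were compared between libraries and classes and not between genes.

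Reticular-like cells held most of the counts of several ligands. They carried 84.2% of the counts of Ccl7 over the 4 libraries, 80.9% of Ccl2, 80.5% of Cxcl9, 79.4% of Ccl19, 70.03% of Cxcl14 and 61.1% of Cxcl10. Leukocyte-like cells held 95.3% of the counts of Ccl4 and 93.1% of Ccl3, which attract inflammatory leukocytes, and 65.4% of Ccl6. Ccl9 was split between reticular-like cells with 55.8% and leukocyte-like cells with 38.2%. Cxcl1 had no single main class, with 45.8% of its counts in chondrocyte-like, 17.9% in reticular-like, 13.4% in endothelial-like and 10.2% in smooth muscle and pericyte-like cells. Endothelial-like cells held 74.4% of Ccl21a, fibroblast-like cells 85.7% of Ccl8, and Ccl11 was shared between smooth muscle and pericyte-like cells with 40.2% and fibroblast-like cells with 33.3%. These shares also follow the number of cells of each class, which differed between the genotypes.

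**Figure D1:**
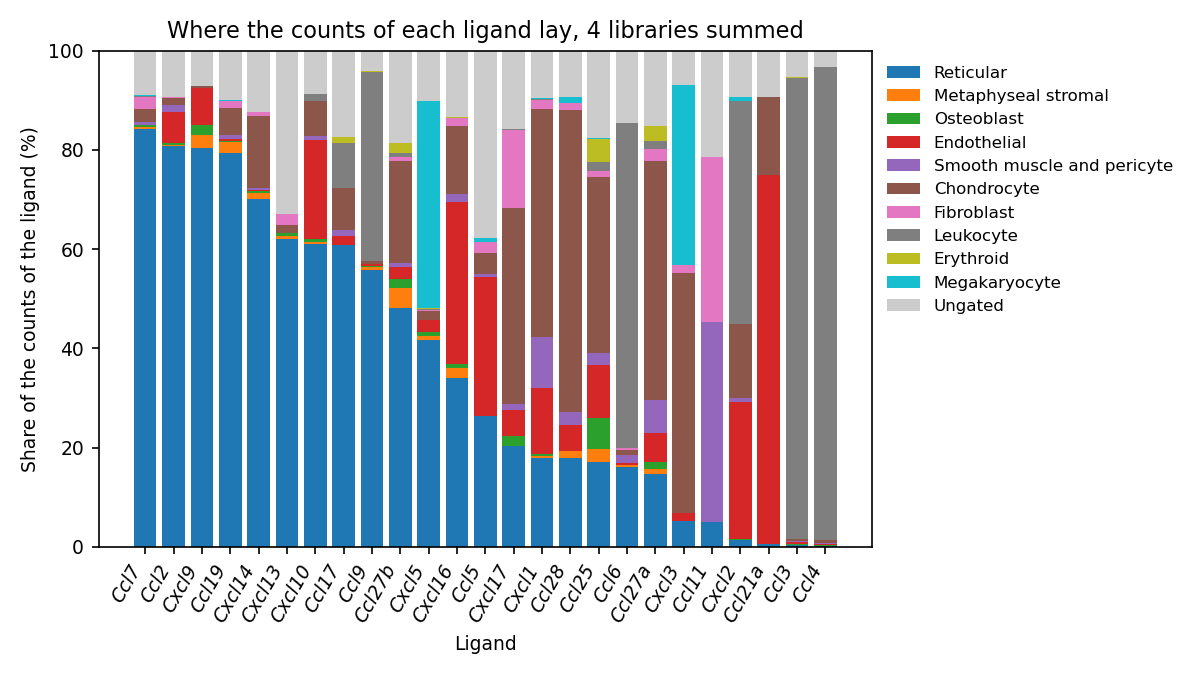
Share of the counts of each ligand in each marker-gated class over the 4 libraries (stacked bars, percent; ligands with at least 50 counts, ordered by the reticular share). Ccl7, Ccl2, Cxcl9 and Ccl19 lay mostly in reticular-like cells, Ccl3 and Ccl4 in leukocyte-like cells, and Cxcl1 was spread over several classes.

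In reticular-like cells the genotypes differed by ligand and not in 1 direction. Cxcl1 was higher in the Lats2iECKO libraries, Ccl2, Cxcl10 and Ccl9 were lower, Cxcl14 was slightly higher, and for Ccl5 and Cxcl9 a few cells set the difference. Of these ligands, only Cxcl1 and Ccl9 were called in every alternative that gave a value. Most Cxcl10 counts also lay in few cells. Of the 32 ligands, 17 passed the minimum of 20 counts over the 4 libraries and 15 did not. edgeR called 4 of the 17 higher and 3 lower, where 11.9% of the 17392 genes tested in this class were called higher and 10.3% lower. The median log2 fold change was -0.32 over the 17 ligands and -0.01 over all genes. Without control 1 the number called was 2 and without control 2 it was 3, and DESeq2 called 3. Beside these values, the summed level of 8 monocyte and macrophage markers in this class was 26.9 and 28.6 CPM against 11.6 and 12.95 CPM, mostly Csf1r (19.6 and 21.3 against 7.59 and 7.80 CPM) and Cd68, while C1qb was at 0 in both mutant libraries and at 0.341 and 0.780 CPM in the controls. The sum of 5 basophil and mast cell markers was 2.09 and 1.54 CPM against 10.5 and 8.85 CPM, and free RNA, estimated from globin transcripts, made up 2.22 and 2.17% against 5.17 and 5.72% of the class. The part of these differences in the ligand values was not tested, except as given for single ligands.

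Cxcl1, which binds Cxcr2 and attracts neutrophils, was at 42.2 and 43.6 CPM in reticular-like cells of the Lats2iECKO libraries and at 18.4 and 13.1 CPM in the controls. Both mutant libraries stood above both controls. The log2 fold change was 1.49 (SE 0.143, edgeR adjusted p = 6.46e-06), and it stayed between 1.27 and 1.76 in every alternative that gave a value. Cxcl1 is a short gene on chromosome 5 (chr5:91039094-91040974 in GRCm39, plus strand, gene ENSMUSG00000029380). After each cell was thinned to 2000 UMIs, 3.43 and 4.25% of the reticular-like cells held a Cxcl1 count in the Lats2iECKO libraries and 2.48 and 1.75% in the controls, so the direction of the share followed that of the sum. The related Cxcl5 was at 4.43 and 8.33 CPM against 5.46 and 5.90 CPM and was not called (log2 fold change 0.24, edgeR adjusted p = 0.579). All 16 immediate early genes of the dissociation list were called higher in the same class, with a median log2 fold change of 1.07, and their part in the Cxcl1 result was not tested.

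**Figure D2:**
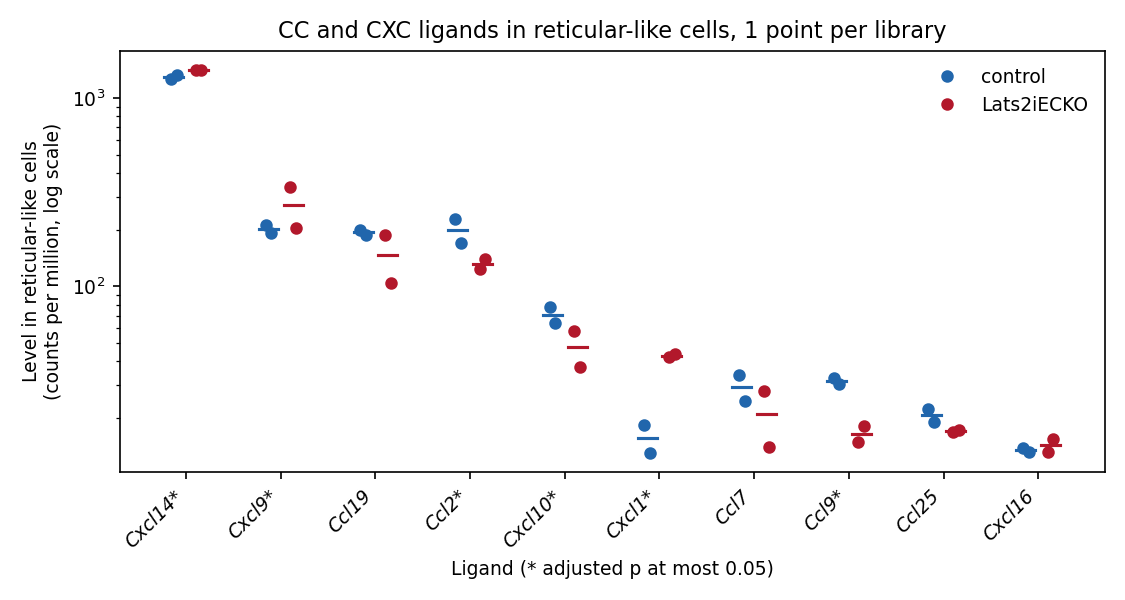
Level of the 10 ligands with a mean of at least 10 CPM in reticular-like cells, in CPM on a log axis (points are libraries, bars are group means, a star marks an edgeR adjusted p of at most 0.05). The 2 Lats2iECKO points of Cxcl1 lie above the control points and those of Ccl2 and Ccl9 below them.

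The interferon-induced ligands Cxcl9 and Cxcl10 rested on few cells. Cxcl9 was at 336 and 203 CPM in the Lats2iECKO libraries and at 211 and 192 CPM in the controls. Library Lats2iECKO 1 stood alone, and the other 3 were close to each other. edgeR called Cxcl9 higher with a log2 fold change of 0.46 (SE 0.152, adjusted p = 0.0467), but 87.5% of its counts in Lats2iECKO 1 lay in the top 1% of cells, against 59.5 to 63.2% in the other libraries. It was not called among cells with no count of any leukocyte, basophil or mast cell marker (0.16, edgeR adjusted p = 0.179) or with free RNA subtracted (0.41, edgeR adjusted p = 0.0979). Neutrophil markers were not part of that marker filter, here and below. The log2 fold change was 0.05 without Lats2iECKO 1 (edgeR adjusted p = 0.705), and neither fit without a control library called it (0.53 and 0.39). When the 1 cell with most Cxcl9 counts was left out of each library, it was -0.09 (edgeR adjusted p = 0.377). In thinned data 4.51 and 6.68% of the reticular-like cells held a Cxcl9 count in the Lats2iECKO libraries against 8.63 and 7.70% in the controls, the opposite order to the sums, so that no order was read from either measure. In chondrocyte-like cells, thinned alike, the share was 0, 0, 0.149 and 0.0724%.

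Cxcl10, which lies close to Cxcl9 on chromosome 5, was at 58.4 and 37.5 CPM in reticular-like cells of the Lats2iECKO libraries and at 77.7 and 64.3 CPM in the controls. Both mutant values were below both control values, and edgeR gave a log2 fold change of -0.54 (SE 0.148, adjusted p = 0.0186). Cxcl10 counts lay in 16, 22, 62 and 54 cells, which were 2.77 and 3.10% against 3.40 and 3.06% of the cells and overlap. After thinning the shares were 1.26 and 2.43% against 1.97 and 2.16%, which overlap too. Between 90.6 and 95.1% of its counts lay in the top 1% of cells of each library. It was -0.22 without Lats2iECKO 2, -0.39 without control 1 and -0.67 without control 2, none of which was called, and -0.88 without Lats2iECKO 1, which was called. Among cells with no count of any leukocyte, basophil or mast cell marker it was -0.47 and was not called (edgeR adjusted p = 0.252), nor did DESeq2 call it (adjusted p = 0.449). It was -1.01 when the top cell of each library was left out (edgeR adjusted p = 3.04e-05). The third ligand of the group, Cxcl11, did not reach 20 counts in any class.

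Cxcl14, a ligand of epithelia and stroma, was at 1414 and 1410 CPM in reticular-like cells of the Lats2iECKO libraries and at 1258 and 1321 CPM in the controls. The groups did not overlap, but the log2 fold change was 0.18 (SE 0.0526, edgeR adjusted p = 0.0284) and was no longer called without control 1 (0.15) or without control 2 (0.21). With free RNA subtracted it was 0.13 and was not called (edgeR adjusted p = 0.0767). In thinned data 73.7 and 77.1% of the cells held a Cxcl14 count in the Lats2iECKO libraries and 80.3 and 80.9% in the controls, again the opposite order to the sums. Cxcl16, a membrane-bound ligand of Cxcr6, was at 13.3 and 15.6 CPM against 13.8 and 13.2 CPM and was not called (log2 fold change 0.15, edgeR adjusted p = 0.528).

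The monocyte-attracting ligands were lower or not called in reticular-like cells. Ccl2, the main ligand of Ccr2, was at 123 and 140 CPM in the Lats2iECKO libraries and at 229 and 169 CPM in the controls. Both mutant libraries were below both controls, with a log2 fold change of -0.55 (SE 0.12, edgeR adjusted p = 0.00491). Without control 1 it was -0.31 and was not called (edgeR adjusted p = 0.13), with a stricter assignment of cells it was -0.27 and was not called, and DESeq2 did not call it (adjusted p = 0.116). Among cells with no count of any leukocyte, basophil or mast cell marker it was -0.57 and was not called (edgeR adjusted p = 0.0944). It was -1.08 when the 1 cell with most Ccl2 counts was left out of each library (edgeR adjusted p = 2.32e-05). Thinned shares of cells with a Ccl2 count were 8.12 and 7.13% against 15.5 and 15.1%, while in chondrocyte-like cells at the same depth they were 0.248, 0.275, 0.0747 and 0.290%. Thinning left out 23 and 51 against 51 and 50 reticular-like cells with under 2000 UMIs, and without thinning the Ccl2 shares were 12.1 and 12.96% against 25.2 and 25.1%.

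Ccl7, a neighbour of Ccl2 on chromosome 11 that binds some of the same receptors, was at 27.9 and 14.0 CPM in reticular-like cells of the Lats2iECKO libraries and at 33.9 and 24.8 CPM in the controls. The groups overlapped, and the log2 fold change of -0.48 was not called (edgeR adjusted p = 0.158). It was -1.03 without Lats2iECKO 1 (edgeR adjusted p = 2.04e-05) and -0.85 when the top cell of each library was left out (edgeR adjusted p = 0.00986), and both were called. The Ccl7 shares after thinning were 2.17 and 1.97% against 4.74 and 4.26%.

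Ccl9, a mouse ligand of Ccr1, fell in reticular-like cells. Its level was 14.9 and 18.2 CPM in the Lats2iECKO libraries and 32.8 and 30.2 CPM in the controls, with no overlap. The log2 fold change was -0.87 (SE 0.128, edgeR adjusted p = 2.51e-04), and it was called in every alternative that gave a value, between -1.03 and -0.67. Leukocyte-like cells held Ccl9 at 151, 291, 208 and 159 CPM, and the basophil and mast cell markers were also lower in the mutant reticular-like cells. Among reticular-like cells with no count of any leukocyte, basophil or mast cell marker the log2 fold change of Ccl9 was -1.03 (edgeR adjusted p = 2.70e-04). Ccl5, a ligand made by T and NK cells, was at 0 and 6.14 CPM against 0.341 and 0.434 CPM, and edgeR called it higher (log2 fold change 3.08, adjusted p = 0.0279). All 28 Ccl5 counts of Lats2iECKO 2 lay in 1 cell, and without that library the gene did not reach the count minimum.

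Homeostatic CC ligands were not called in reticular-like cells. Ccl19, a ligand of Ccr7, was at 187 and 105 CPM in the Lats2iECKO libraries and at 200 and 187 CPM in the controls (log2 fold change -0.38, edgeR adjusted p = 0.118). In Lats2iECKO 1 the top 1% of cells held 48.6% of the Ccl19 counts, against 10.7 to 16.6% in the other libraries. Without that library the log2 fold change was -0.85 (edgeR adjusted p = 1.76e-12), and without the top cell of each library it was -0.73 (edgeR adjusted p = 1.38e-05). The thinned shares of cells with a Ccl19 count were 15.7 and 16.4% against 23.6 and 23.9%. Ccl25, the ligand of Ccr9, was at 16.9 and 17.3 CPM against 22.5 and 19.1 CPM and was not called (log2 fold change -0.23, edgeR adjusted p = 0.268). Ccl17, which binds Ccr4, was at 2.09 and 1.31 CPM against 4.603 and 2.86 CPM (log2 fold change -1.11, edgeR adjusted p = 0.0776) and was called without Lats2iECKO 1 (-1.46). Ccl27a, Ccl27b, Cxcl13 and Ccl6 were not called either, with log2 fold changes of -0.32, -0.67, -0.46 and 0.14.

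**Figure D3:**
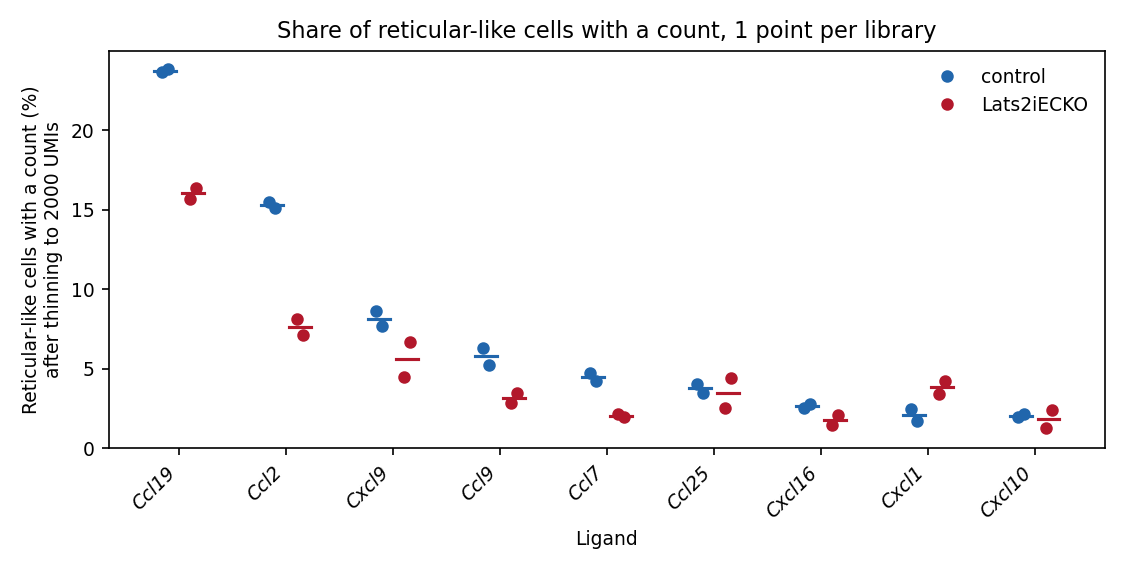
Share of reticular-like cells with at least 1 count of a ligand after each cell was thinned to 2000 UMIs (percent; points are libraries, bars are group means; Cxcl14 is left out for scale). For Ccl19 and Ccl2 the Lats2iECKO points lie below the control points, and for Cxcl1 above them.

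Cxcl1, Cxcl2, Cxcl9 and Cxcl10 were taken from ligands with an NF-kappaB motif near the start, so sharing it follows from that choice. The NF-kappaB motif GGGAANNNCC, searched on both strands from 250 bases before to 50 bases after the RefSeq start (GRCm38.p6), was found in 5.78% of 32851 promoter windows and in 6 of the 22 ligands with a window there. The 6 were Ccl19, Cxcl3, Cxcl1, Cxcl2, Cxcl9 and Cxcl10. The AP-1 motif TGANTCA was in 7.81% of windows and in 6 of the 22 ligands, and the interferon motif GAAANNGAAA in 3.44% of windows and in 3 of the 22, Ccl19, Cxcl10 and Cxcl14. The 150 bases before the start of the 4 ligands are printed as 2 pairs of related ligands that were each called in at least 2 classes, with NF-kappaB matches in capitals. In Cxcl1 (chr5:90891095-90891244, plus strand) the matches end 80, 61 and 60 bases before the start, the last 2 being overlapping matches on the 2 strands. In Cxcl2 (chr5:90903749-90903898, plus strand) the overlapping matches end 87 and 86 bases before the start, in Cxcl9 (chr5:92328080-92328229, minus strand) 120 bases and in Cxcl10 (chr5:92348890-92349039, minus strand) 93 bases before it. Other ligands called in at least 2 classes were Ccl19 with a match, Cxcl14 and Ccl27a without one, and Ccl2 without a window. A match of letters is not a measured binding site.
Cxcl1: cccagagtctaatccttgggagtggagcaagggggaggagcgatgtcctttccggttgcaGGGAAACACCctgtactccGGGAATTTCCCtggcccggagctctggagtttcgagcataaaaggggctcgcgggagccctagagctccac
Cxcl2: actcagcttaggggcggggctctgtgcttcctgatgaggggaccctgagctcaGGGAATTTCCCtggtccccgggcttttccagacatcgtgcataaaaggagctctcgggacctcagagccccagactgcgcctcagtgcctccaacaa
Cxcl9: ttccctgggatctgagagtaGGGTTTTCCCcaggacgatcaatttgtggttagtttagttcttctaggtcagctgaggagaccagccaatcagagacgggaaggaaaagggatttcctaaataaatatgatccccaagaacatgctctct
Cxcl10: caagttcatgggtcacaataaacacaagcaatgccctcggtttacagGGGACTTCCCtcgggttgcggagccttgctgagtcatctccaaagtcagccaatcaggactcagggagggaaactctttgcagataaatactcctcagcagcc

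In endothelial-like cells, the class that held the Cre-ERT2 transcripts, the inflammatory ligands Ccl2, Cxcl1 and Cxcl2 were higher in the mutants. Of 12 ligands tested, 5 were called higher and 2 lower, where 16.1% of 16062 genes were called higher and 15.5% lower, and DESeq2 called 3. The median log2 fold change was 0.77 over the 12 ligands. The class held 531 and 653 cells against 827 and 814. In its immediate early gene list, 14 of 16 genes were called higher and 2 lower (median log2 fold change 0.84), and reticular markers summed to 987 and 942 CPM against 757 and 734 CPM. The 10 leukocyte markers summed to 46.7 and 49.97 CPM against 141 and 152 CPM, nearly all of it Fcer1g at 43.9 and 46.5 against 138 and 149 CPM, while Ptprc was at 0 in 3 libraries. The 5 basophil and mast cell markers summed to 0.601 and 0.999 CPM against 10.15 and 7.09 CPM, mostly Mcpt8 and Prss34 in the controls. The part of these differences in the values below was not tested, except as given for cells without such markers.

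Ccl2 was at 51.3 and 23.0 CPM in the Lats2iECKO endothelial-like cells and at 4.90 and 5.67 CPM in the controls. Both mutant libraries stood far above the controls, with a log2 fold change of 2.86 (SE 0.345, edgeR adjusted p = 5.67e-05). It was called in every alternative that gave a value, between 2.21 without Lats2iECKO 1 and 3.35 without Lats2iECKO 2. Its counts lay in 22 and 27 cells against 10 and 17, and the estimated free RNA level was 0.258, 0.264, 1.21 and 0.780 CPM, below the levels measured in all 4 libraries.

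Cxcl1 was at 50.9 and 33.2 CPM against 7.78 and 7.97 CPM in endothelial-like cells (log2 fold change 2.48, SE 0.208, edgeR adjusted p = 3.02e-06). After thinning, 4.71 and 5.33% of the mutant cells held a Cxcl1 count against 0.902 and 0.796% of the control cells. Cxcl2, which shares the receptor of Cxcl1, was at 8.81 and 7.16 CPM against 1.18 and 2.66 CPM (log2 fold change 2.12, SE 0.36, edgeR adjusted p = 7.18e-04). The Cxcl2 difference was 2.79 without control 2, and it was 1.17 and was not called without cells of very high UMI count. Thus the neutrophil-attracting pair was higher in both mutant libraries than in either control.

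The remaining endothelial calls, of Ccl27a, Cxcl16, Cxcl9 and Ccl25, were smaller and depended on single libraries. Among endothelial-like cells with no count of any leukocyte, basophil or mast cell marker none of these 4 was called, with log2 fold changes of 0.78, 0.54, -0.77 and -0.63 in that order that kept their direction (edgeR adjusted p = 0.175, 0.0894, 0.194 and 0.0984). DESeq2 called none of them either (1.15, 0.48, -0.88 and -0.55), while Ccl2, Cxcl1 and Cxcl2 were called among the cells without such markers (2.34, 2.08 and 3.11). That subset held 421 and 492 mutant against 482 and 499 control cells, and neutrophil markers were not used to define it. Ccl27a, a ligand of Ccr10, was at 5.38 and 5.79 CPM against 2.49 and 2.88 CPM (log2 fold change 1.14, edgeR adjusted p = 0.0141) and was not called without Lats2iECKO 2 (1.08) or control 1 (1.06). Reads of Ccl27a and its copy Ccl27b were split by estimation, so both values are uncertain. Cxcl16 was at 18.6 and 23.2 CPM against 16.7 and 15.1 CPM (log2 fold change 0.48, edgeR adjusted p = 0.0396) and was not called without Lats2iECKO 2 (0.31), control 1 (0.55) or control 2 (0.40). Cxcl9 was at 11.2 and 25.99 CPM against 27.4 and 45.3 CPM (log2 fold change -0.85, edgeR adjusted p = 0.0432), and it was called without Lats2iECKO 1 (-0.38), Lats2iECKO 2 (-1.61) or control 1 (-1.18) but not without control 2 (-0.46) or with free RNA subtracted (-0.86, edgeR adjusted p = 0.0585). Ccl25 was at 16.0 and 11.7 CPM against 20.1 and 22.5 CPM (log2 fold change -0.56, edgeR adjusted p = 0.0273) and was not called without Lats2iECKO 2 (-0.33) or control 2 (-0.48). Cxcl10 with 10.8 and 33.8 CPM against 22.2 and 49.4 CPM was not called (edgeR adjusted p = 0.325). Ccl21a, the lymphatic ligand of Ccr7, was at 17.4 and 21.2 CPM against 0 and 20.1 CPM, its counts lay in 3, 2, 0 and 3 cells, and it was not called (edgeR adjusted p = 0.286).

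Smooth muscle and pericyte-like cells had 3 of 9 tested ligands called higher and 2 lower, where 13.5% of 12904 genes were called higher and 12.1% lower. Cxcl1, Cxcl14 and Ccl2 were higher, and Ccl19 and Cxcl10 lower. The class held 365 and 393 cells against 254 and 250, and its makeup differed between the genotypes. Its own 10 markers summed to 12980 and 13420 CPM against 22900 and 24130 CPM, the reticular markers to 1848 and 2325 CPM against 1043 and 1028 CPM, and the 10 leukocyte markers to 146 and 143 CPM against 16.0 and 20.3 CPM. Of the last sum, Fcer1g alone made up 138 and 131 CPM against 10.7 and 16.5 CPM, and Ptprc, which encodes CD45, was at 0 in 3 libraries and at 0.660 CPM in Lats2iECKO 2. The basophil and mast cell markers Mcpt8 and Prss34 went the other way, Mcpt8 at 0 and 0.660 CPM against 2.00 and 4.83 CPM. Csf1r was at 5.27 and 11.5 CPM against 2.00 and 2.07 CPM, while Cd68 overlapped. In the immediate early gene list 14 of 16 genes were called higher and 2 lower. Among cells with no count of any leukocyte, basophil or mast cell marker, Cxcl1, Cxcl14, Ccl2 and Ccl19 were still called. The part of the other differences in the ligand values was not tested.

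Cxcl1 was at 43.3 and 80.8 CPM in smooth muscle and pericyte-like cells of the Lats2iECKO libraries and at 19.4 and 18.6 CPM in the controls (log2 fold change 1.76, SE 0.271, edgeR adjusted p = 3.76e-05). Cxcl14 was at 29.4 and 45.8 CPM against 6.01 and 9.65 CPM (log2 fold change 2.31, SE 0.305, edgeR adjusted p = 5.35e-06). Both genes were above every control value in both mutant libraries, and both were called in every alternative that gave a value. The estimated free RNA level of Cxcl14 was 2.30, 2.91, 4.36 and 4.02 CPM, close to the level measured in control 1. Ccl2 was at 10.2 and 23.1 CPM against 0.668 and 2.76 CPM (log2 fold change 3.31, SE 0.578, edgeR adjusted p = 1.58e-04). It stayed called without each library, at 3.76 without Lats2iECKO 1, 2.58 without Lats2iECKO 2, 2.62 without control 1 and 4.603 without control 2. The control values of Ccl2 came from 1 and 4 cells and stood beside an estimated free RNA level of 0.973 and 0.714 CPM, the first below and the second above it.

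Ccl19 was at 3.05 and 3.63 CPM against 18.5 and 7.70 CPM in smooth muscle and pericyte-like cells (log2 fold change -1.93, SE 0.44, edgeR adjusted p = 0.00228), and without control 1 it was -1.15 and was not called. With the stricter assignment of cells Ccl19 was not called either. Its counts lay in 4 and 6 mutant and 10 and 5 control cells. Cxcl10 was at 2.26 and 0.989 CPM against 4.01 and 7.58 CPM (log2 fold change -1.79, edgeR adjusted p = 0.0349), and it was -1.28 and not called without Lats2iECKO 2, and -2.43 and called without Lats2iECKO 1. The Cxcl10 counts numbered only 6 and 3 against 6 and 11, in 2 and 3 mutant and 4 and 5 control cells. Ccl11, which attracts eosinophils through Ccr3, was at 7.16 and 3.63 CPM against 14.0 and 8.96 CPM, and the log2 fold change of -1.08 was not called (edgeR adjusted p = 0.0511).

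Chondrocyte-like cells were the largest class of the mutants, with 2047 and 2202 cells against 1346 and 1391. Of 16 ligands tested, 4 were called higher and 3 lower, close to what all genes showed, since 21.2% of 20320 genes were called higher and 21.8% lower. Without Lats2iECKO 1 the number of ligands called was 4 in all. Cxcl14 was at 94.0 and 105 CPM in the Lats2iECKO libraries and at 79.2 and 73.2 CPM in the controls (log2 fold change 0.42, SE 0.0583, edgeR adjusted p = 1.05e-04). Cxcl1 was at 22.8 and 21.1 CPM against 13.2 and 17.9 CPM (log2 fold change 0.52, SE 0.115, edgeR adjusted p = 0.00294). Both were called in every alternative that gave a value, and the groups did not overlap. In thinned data, however, the shares of chondrocyte-like cells with a Cxcl1 count were 2.92 and 1.92% against 2.02 and 2.75%, which overlap. Among the immediate early genes 12 of 16 were called higher and 2 lower, and the chondrocyte markers summed to 40540 and 39680 CPM against 58060 and 57810 CPM. Their part in the result was not tested.

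The other chondrocyte calls lay at low levels. Cxcl10 was at 1.89 and 5.49 CPM against 0.891 and 0.503 CPM (log2 fold change 2.44, edgeR adjusted p = 0.00212), and was called in every alternative that gave a value. The log2 fold change was 1.49 without Lats2iECKO 2, and 2.10 to 3.02 without another library. Its counts lay in 17 and 22 mutant and 16 and 10 control cells, which are 0.831 and 0.999% against 1.19 and 0.719% of the cells and overlap. Cxcl9 was at 0.0714 and 0.103 CPM against 0.734 and 0.553 CPM (log2 fold change -2.77, edgeR adjusted p = 0.00133), where the estimated free RNA level was 0.162, 0.272, 0.488 and 0.365 CPM. Ccl19 was at 3.44 and 3.65 CPM against 4.54 and 5.22 CPM (log2 fold change -0.44, edgeR adjusted p = 0.0395) and was not called without Lats2iECKO 1, Lats2iECKO 2 or control 2 (-0.39, -0.47 and -0.32). Ccl27a was at 7.07 and 7.27 CPM against 9.14 and 9.08 CPM (log2 fold change -0.31, edgeR adjusted p = 0.0337) and was not called when any of the 4 libraries was left out (-0.33 to -0.29). Neither was called by DESeq2 (-0.44 for Ccl19 and -0.31 for Ccl27a) or among cells with no count of any leukocyte, basophil or mast cell marker (-0.47 and -0.29), although these log2 fold changes were close to those over all cells. Ccl21a was at 2.33 and 0.0549 CPM against 0 and 0.0704 CPM (edgeR adjusted p = 0.0248). The Ccl21a counts of Lats2iECKO 1 lay in 1 cell, the ratio of the groups was 32.6 with an exact 95% interval of 7.93 to 1831 that covers counting error only, and without that library the gene fell below the count minimum.

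The smaller stromal classes gave few calls. In fibroblast-like cells 2 of 9 ligands were called higher and none lower, where 1.59% of 10568 genes were called in either direction. DESeq2 gave neither of the pair an adjusted p, so it bears on neither call. Cxcl1 was at 46.0 and 29.4 CPM against 3.96 and 4.11 CPM there (log2 fold change 3.24, SE 0.435, edgeR adjusted p = 5.01e-04), with counts in 8 and 8 mutant cells and in 2 and 1 control cells. In the same class 6 of 16 immediate early genes were called higher and none lower (median log2 fold change 0.55), and 189 of the 455 cells lay near the threshold of the assignment, and the part of either in the Cxcl1 result was not tested. Ccl8, a ligand of mouse Ccr8, was at 10.5 and 18.9 CPM against 1.98 and 0 CPM (edgeR adjusted p = 0.0177). The Ccl8 counts numbered 28 in 1 and 3 mutant cells and 2 in the controls. The ratio of the groups was 14.5 with an exact 95% interval of 3.67 to 126. That interval covers counting error only and takes counts as independent, although few cells held them.

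In osteoblast-like cells 1 of 6 ligands was called, where 4.49% of 14186 genes were. Cxcl9 was at 0 CPM in both Lats2iECKO libraries and at 4.30 and 10.5 CPM in the controls (edgeR adjusted p = 0.00672). Its 176 control counts lay in 6 and 4 cells, which are 0.936 and 0.595% of the control cells. Against a floor of 3 counts over the 2 mutant libraries the ratio was at least 9.98. That value covers counting error only and takes counts as independent. With so few cells holding them, it is no bound on the fold change. Without the 1 cell with most counts in each library Cxcl9 was not called there (edgeR adjusted p = 0.281). The class held 121 and 147 cells against 641 and 672.

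In metaphyseal stromal-like cells, of which 276 of 535 lay near the threshold of the assignment, none of 5 ligands was called, where 4.82% of 11588 genes were. edgeR gave an unadjusted p under 0.05 for 1 of the 5 and DESeq2 called 0. That ligand was Cxcl9 at 340 and 0 CPM against 23.6 and 7.82 CPM (edgeR adjusted p = 0.0613), where all counts of Lats2iECKO 1 lay in 1 cell, and without that library the direction turned and Cxcl9 was called lower (log2 fold change -7.36, a fitted value against mutants at 0, edgeR adjusted p = 0.00286). Cxcl14 was at 243 and 205 CPM against 156 and 207 CPM there and was not called (log2 fold change 0.36, edgeR adjusted p = 0.294).

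In leukocyte-like cells 1 of 8 ligands was called higher and 1 lower, where 1.46% of 9924 genes were called in either direction. Ccl4 was at 2249 and 1426 CPM in the Lats2iECKO libraries and at 622 and 878 CPM in the controls (log2 fold change 1.34, SE 0.212, edgeR adjusted p = 0.0170), and was called in every alternative that gave a value. Its neighbour Ccl3 was at 1899 and 886 CPM against 626 and 859 CPM and was not called (log2 fold change 0.95, edgeR adjusted p = 0.160). Cxcl2 was at 12.8 and 6.14 CPM against 55.6 and 110 CPM (log2 fold change -3.08, edgeR adjusted p = 0.0261), and without Lats2iECKO 2 it was -2.61 and was not called. The mutant Cxcl2 counts numbered 5 and 3 in 1 and 2 cells, against 66 and 103 in 10 and 16 control cells. With the stricter assignment of cells or the stricter barcode filter Cxcl2 was not called either. On these few mutant counts Cxcl2 was lower in leukocyte-like cells, while it was higher in mutant endothelial-like cells, a difference that was not tested. The basophil and mast cell markers of the class summed to 11780 and 13790 CPM against 22950 and 28260 CPM, and the neutrophil markers to 35.8 and 994 CPM against 3968 and 4491 CPM. The part of this makeup in the Ccl4 and Cxcl2 values was not tested.

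**Figure D4:**
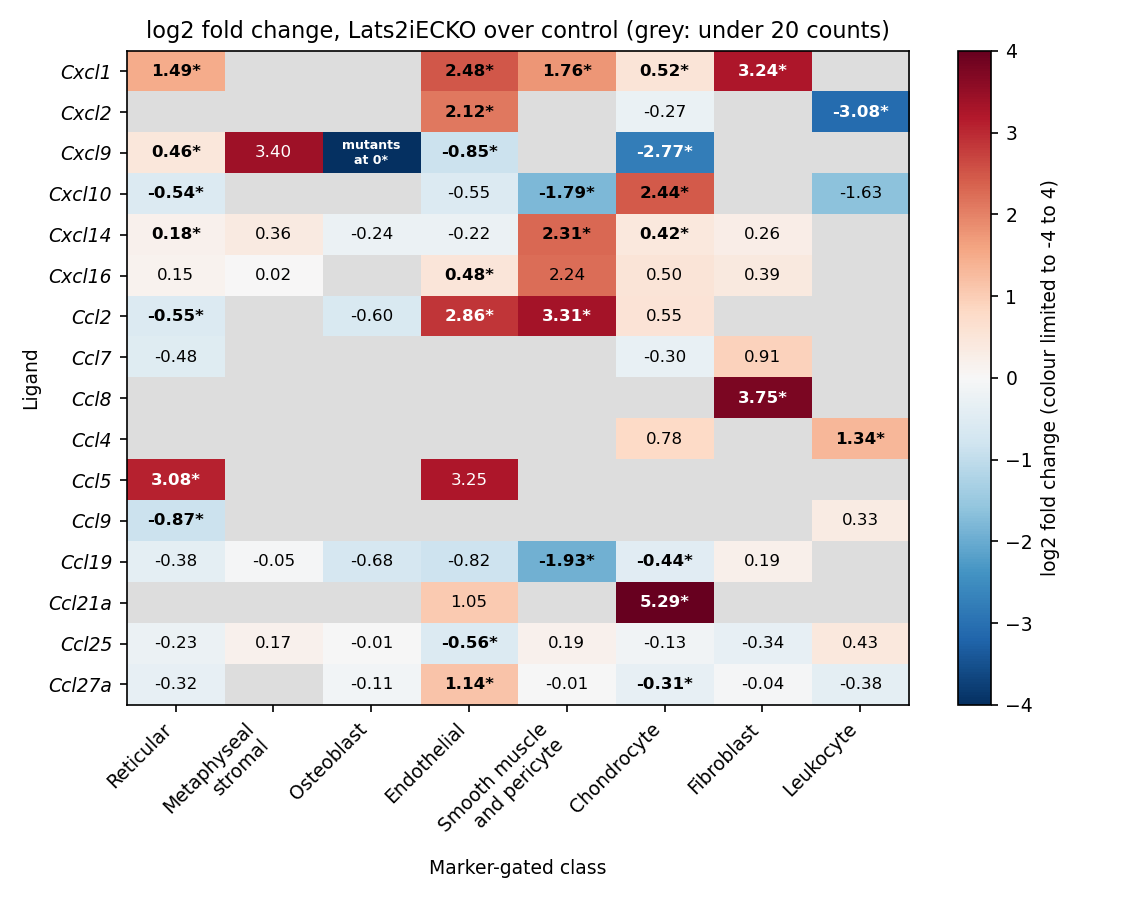
log2 fold change (Lats2iECKO over control, from edgeR) of the 16 ligands described with the value of every library, by class; grey cells had under 20 counts, and a star marks an adjusted p of at most 0.05. Cxcl1 is starred and above 0 in all 5 classes where it could be tested, while Ccl2, Cxcl9 and Cxcl10 change sign between classes. The values of Cxcl9 above 0, in reticular-like and metaphyseal stromal-like cells, rest on few cells of Lats2iECKO 1. Its value in osteoblast-like cells rests on few control cells.

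Set side by side, Cxcl1 was called higher in 5 of the 5 classes in which it was tested and Cxcl14 in 3 of 7, whereas Ccl2 was called higher in 2 and lower in 1 of 5. Cxcl9 was called higher in 1 and lower in 3 of 5 classes, and Cxcl10 higher in 1 and lower in 2 of 5. The higher call of Cxcl9, in reticular-like cells, was lost without Lats2iECKO 1 (0.05) and turned to -0.09 without the top cell of each library. Of its lower calls, that in osteoblast-like cells was lost without the top cell of each library. The lower call in endothelial-like cells was lost with free RNA subtracted and with DESeq2. In chondrocyte-like cells the lower call held in every alternative that gave a value, but the mutant levels lay below the estimated free RNA level. The lower calls of Cxcl10 rested on few cells. The classes share libraries, so they are not independent. Whether a genotype effect differed from that in reticular-like cells was tested in 1 edgeR fit of the 7 stromal classes with the library as a block, over 23811 genes, 28 of them ligands. That fit took 1 spread per gene for all 7 classes, so its SE and p-values do not rest on the spread within a class. Its small p-values may overstate the precision that 4 libraries give.

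Against endothelial-like cells the effect differed for 5 ligands (17.9% of the 28), where 8.02% of genes differed. For Ccl2 the reticular minus endothelial difference of the log2 fold changes was -3.43 (SE 0.267, edgeR adjusted p = 7.10e-18), the lower level in reticular-like and the higher level in endothelial-like cells. For Cxcl1 it was -1.02 (SE 0.283, edgeR adjusted p = 0.0109), so the endothelial increase exceeded the reticular one. Ccl27a differed too (-1.50), and so did Ccl3 (7.05, a fitted value on 12 mutant and 0 control reticular counts). Cxcl9 differed by 1.21, but its reticular log2 fold change was 0.05 without Lats2iECKO 1 and -0.09 without the top cell of each library, so no order was read from this difference.

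Against smooth muscle and pericyte-like cells 2 ligands (7.14%) differed, close to the 6.84% of all genes, namely Ccl2 (-3.97) and Cxcl14 (-2.21). Against chondrocyte-like cells 3 (10.7%) differed, close to the 12.1% of all genes, namely Cxcl10 (-3.06), Cxcl1 (0.87) and Ccl3 (5.98). Cxcl9 alone differed against metaphyseal stromal-like cells (-2.83), where 1.39% of genes did, and against osteoblast-like cells, where 2.66% did. None of the ligands differed against fibroblast-like cells, where 1.01% of genes did, and 1 of them had an unadjusted p under 0.05, Cxcl1 (edgeR adjusted p = 0.258).

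**Figure D5:**
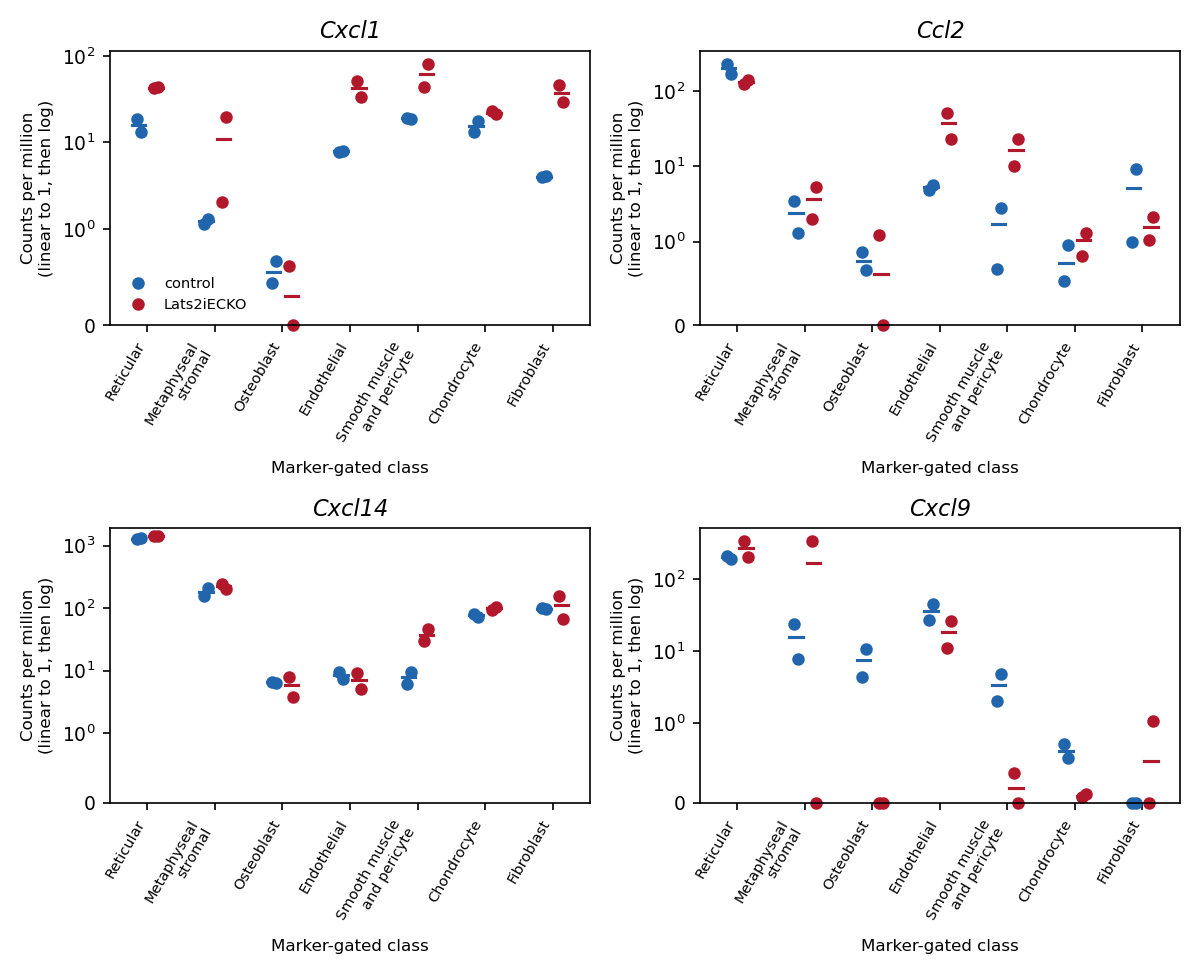
Level of Cxcl1, Ccl2, Cxcl14 and Cxcl9 in the 7 stromal classes, in CPM on an axis that is linear to 1 and then logarithmic (points are libraries, bars are group means). Ccl2 lies lower in the mutants in reticular-like cells and higher in endothelial-like and smooth muscle and pericyte-like cells.

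Receptors and other genes of the pathway were read from fixed lists, whose counts stand against the shares of all genes called higher and lower, 11.9 and 10.3% in reticular-like, 16.1 and 15.5% in endothelial-like, 13.5 and 12.1% in smooth muscle and pericyte-like and 21.2 and 21.8% in chondrocyte-like cells. Of 9 chemokine receptors tested in reticular-like cells, 3 were called higher and 2 lower. Ccr9, the receptor of Ccl25, was at 0.521 and 0.877 CPM against 7.59 and 6.45 CPM (log2 fold change -3.22, edgeR adjusted p = 6.28e-05), and the scavenger of Ccl19 and Ccl25, Ackr4, was at 169 and 192 CPM against 255 and 260 CPM (log2 fold change -0.46, edgeR adjusted p = 2.39e-04). Ackr3, which scavenges Cxcl12, was at 14.9 and 8.33 CPM against 5.29 and 4.94 CPM (log2 fold change 1.20, edgeR adjusted p = 0.00433). In endothelial-like cells 4 of 8 receptors were called higher and 1 lower, with Cxcr4 at 49.9 and 54.6 CPM against 14.2 and 13.3 CPM (log2 fold change 2.00, edgeR adjusted p = 1.69e-07). In smooth muscle and pericyte-like cells none of 4 was called higher and 1 lower, Ackr3 (log2 fold change -0.997), and in chondrocyte-like cells 3 of 10 higher and 1 lower, with Ackr3 higher (2.28).

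Of the chemokine ligands that the rule left out, none of 4 tested in reticular-like cells was called higher and 3 were called lower. Cxcl12 was at 15630 and 16070 CPM in the Lats2iECKO libraries and at 19830 and 19750 CPM in the controls, with a log2 fold change of -0.27 (SE 0.0446, edgeR adjusted p = 5.62e-04), while the platelet ligands Ppbp and Pf4 fell by 1.17 and 0.85 on the log2 scale. Ppbp and Pf4 are also megakaryocyte markers of the assignment. Free RNA made up 2.22 and 2.17% against 5.17 and 5.72% of this class, and its part in the Ppbp and Pf4 values was not tested. Cx3cl1, a membrane-bound ligand, was higher in endothelial-like (log2 fold change 1.24), smooth muscle and pericyte-like (3.12) and chondrocyte-like cells (0.84).

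Among 16 NF-kappaB target and feedback genes in reticular-like cells, 3 were called higher and 4 lower, with a median log2 fold change of -0.09. Ptgs2, which encodes an enzyme of prostaglandin synthesis, was at 15.1 and 8.99 CPM against 0.170 and 0.607 CPM (log2 fold change 4.93, edgeR adjusted p = 3.01e-06), and Nfkbiz and Nfkbia were higher (0.61 and 0.55) while Nfkbie was lower (-0.58). In endothelial-like cells 9 of the 16 were called higher and 1 lower, with Nfkbia (1.28) and Icam1 (0.77) higher and Vcam1 (-0.78) lower. In smooth muscle and pericyte-like cells 7 of 14 were called higher and 2 lower, and in chondrocyte-like cells 8 of 16 higher and 1 lower, where 21.2% of all genes were called higher.

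Interferon response genes had 6 of 12 called lower and none higher in reticular-like cells, with a median log2 fold change of -0.40. Bst2, which encodes the antiviral protein tetherin, was at 166 and 169 CPM against 213 and 223 CPM (log2 fold change -0.34, edgeR adjusted p = 0.00140), and Ifit1 and Irf7 were lower as well (-0.42 each). In endothelial-like cells 2 of 12 were called higher and 2 lower. Of 10 IL-1, TNF and IL-17 receptor genes in reticular-like cells, 1 was called higher and 3 lower. Il1r1, the signalling receptor of IL-1, was at 267 and 251 CPM against 412 and 420 CPM (log2 fold change -0.64, edgeR adjusted p = 5.84e-06), Tlr4 fell by 0.82 on the log2 scale, and Il17ra was higher (0.40).

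The dissociation and immediate early list had the largest median log2 fold change of the fixed lists in reticular-like cells. There Fos was at 1129 and 1067 CPM against 400 and 410 CPM (log2 fold change 1.48, edgeR adjusted p = 4.67e-09), and Ier3 (1.94), Nr4a1 (1.73) and Fosb (1.13) were higher as well. In leukocyte-like cells of the same libraries 1 of 16 genes of this list was called higher and 6 lower, with a median log2 fold change of -0.70. Such genes respond to tissue dissociation as well as to signals in the animal, which cannot be told apart here.

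The other 16 ligands were neither at 10 CPM in reticular-like cells nor called in any class. Among the 8 classes compared, which leave out erythroid-like and megakaryocyte-like cells, their highest mean level over the libraries was in leukocyte-like cells for Ccl3 (1067 CPM), Ccl6 (52.1 CPM), Ccl17 (5.02 CPM) and Cxcl15 (0.210 CPM), in fibroblast-like cells for Ccl11 (13.5 CPM) and Cxcl17 (3.13 CPM), and in reticular-like cells for Cxcl5 (6.03 CPM), Cxcl13 (3.26 CPM) and Ccl27b (1.12 CPM). It was in endothelial-like cells for the Ccl21 copies Ccl21b and Ccl21d (0.622 CPM each), Cxcl11 (0.521 CPM) and Ccl12 (0.436 CPM), in chondrocyte-like cells for Ccl28 (0.475 CPM) and Cxcl3 (0.277 CPM), and in metaphyseal stromal-like cells for Ccl24 (0.144 CPM). Several of these levels rest on few counts or cells. Cxcl15 in leukocyte-like and Ccl24 in metaphyseal stromal-like cells were 1 count each. In fibroblast-like cells 9 Cxcl17 counts lay in 1 cell of Lats2iECKO 2. The Ccl21b and Ccl21d counts of endothelial-like cells lay in 1 cell of Lats2iECKO 1 and 1 cell of control 2. Megakaryocyte-like cells, 129 in all, held 41.7% of the Cxcl5 counts and 36.2% of the Cxcl3 counts. Ccl21b and Ccl21d had identical values, and reads that fit several copies were divided by estimation.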

How the data were processed

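The authors trimmed reads with cutadapt 3.5, aligned them with STARsolo 2.7.10a to mm39 with introns counted, and deposited expected counts per gene and barcode, in which UMIs that fit several genes were divided by estimation, so that 9.09 to 9.95% of the entries were not whole. Barcodes with at least 1000 UMIs, at least 800 genes, under 15% mitochondrial and under 5% hemoglobin UMIs and a complexity over 0.8 were used, and doublets were not called. A barcode was given to the marker list with the highest share of detected genes, where this was at least 40% and led by 20 percentage points. These thresholds were set after the marker values were seen and before genotypes were compared. Sums of these expected counts over the cells of 1 class in 1 library were rounded and tested with edgeR 4.0.16 (R 4.3.3, limma 3.58.1; TMM, quasi-likelihood, at least 20 counts over 4 libraries, Benjamini-Hochberg adjustment over all genes tested). DESeq2 1.42.0 was an alternative. Within a class the p-values measure the spread between 2 libraries per group, which may be technical. Those of the interaction fit use 1 spread per gene over all stromal classes. Free RNA was estimated from the globin level of a class against droplets with 10 to 100 UMIs. In simulated reticular-like sums the test called 95% of the 2-fold and 100% of the 4-fold changes set. The changes were set in 200 genes of higher count, with counts drawn from a negative binomial model. These shares therefore do not apply to ligands with few counts or with counts in few cells.

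Ligands with a mean of at least 10 CPM in reticular-like cells or called in any class were described with the value of every library, and for the others the class with the highest level was named. The ligands and lists were chosen with earlier results of these data known. Alternatives covered normalization, the filter on low counts, the assignment of cells, the barcode filter, cells with a leukocyte marker count, cells over 3 times the median UMIs, free RNA, each library left out and a replicate block. The alternative on leukocyte markers did not count neutrophil markers. Leaving out the 1 cell with most counts of a ligand in each library and class was added after seeing the data. Gene positions came from GENCODE on GRCm39, promoter sequences from RefSeq on GRCm38.p6. Intervals and floors cover counting error only.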

Additional observations from a re-analysis of the deposited data

Results flagged for a closer look

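For 12 pairs of a ligand and a class the genotype effect differed from that in reticular-like cells by the interaction test in edgeR, and the values are differences of log2 fold changes, reticular-like minus the other class. For Ccl2 they were -3.43 against endothelial-like and -3.97 against smooth muscle and pericyte-like cells. Ccl2 was called lower in reticular-like cells and higher in the other 2 classes. For Cxcl1 they were -1.02 against endothelial-like and 0.87 against chondrocyte-like cells, with Cxcl1 called higher in all 3 classes. Cxcl14 differed by -2.21 against smooth muscle and pericyte-like cells, Cxcl10 by -3.06 against chondrocyte-like cells, and Ccl27a by -1.50 against endothelial-like cells. Cxcl9 differed by 1.21 against endothelial-like cells, but its reticular log2 fold change was 0.05 without Lats2iECKO 1 and -0.09 without the top cell of each library. It also differed by -2.83 against metaphyseal stromal-like and by 9.63 against osteoblast-like cells, where the first rests on 1 cell of Lats2iECKO 1 and the second is a fitted value against mutants at 0 that gives no bound. Ccl3 differed by 7.05 against endothelial-like and by 5.98 against chondrocyte-like cells, also fitted values, with 3 and 9 counts in mutant and 0 in control reticular-like cells.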

How the results depend on the processing

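Of the 31 called differences of a ligand in a class, 14 were called in every alternative that gave a value and 17 without each library that gave a value, and 1 reversed, Cxcl9 in reticular-like cells without the top cell of each library (-0.085). RLE size factors lost none of the 31 and filterByExpr none of the 28 it gave a value for, while DESeq2 lost 11 of 27 and gave no adjusted p for 4 more, and leaving out cells with a leukocyte marker count lost 9 of 25, Cxcl9, Cxcl10 and Ccl2 in reticular-like, Ccl27a, Cxcl16, Cxcl9 and Ccl25 in endothelial-like and Ccl27a and Ccl19 in chondrocyte-like cells.

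The number of ligands called in reticular-like cells, 7, was 3 with DESeq2, 3 with filterByExpr and a count in at least 20% of cells, 2 with no filter beyond 1 count, 4 among cells with no leukocyte marker count, and 2 to 9 when a library was left out. In metaphyseal stromal-like cells it was 0 and became 1 with filterByExpr, the replicate block, no leukocyte marker count, the stricter barcode filter and without high-UMI cells, and 2 with no filter. Such counts give no direction, and that of Cxcl9 in this class turned without Lats2iECKO 1, whose Cxcl9 counts there lay in 1 cell. In endothelial-like cells 7 became 3 with DESeq2 and 4 with no leukocyte marker count, and in chondrocyte-like cells 7 became 4 with DESeq2, no filter or no leukocyte marker count and 4 to 5 when a library was left out. In fibroblast-like cells 2 became 0 with DESeq2, which gave neither ligand an adjusted p, 0 with the stricter assignment, where neither was tested, and 1 with no leukocyte marker count or without the top cell, where Ccl8 was not tested, in leukocyte-like cells 2 became 1 with DESeq2, which gave Cxcl2 no adjusted p, and 1 with the stricter barcode filter, and in osteoblast-like cells 1 became 0 without the top cell. The 20% filter left 1 in chondrocyte-like cells and 0 in the osteoblast-like, endothelial-like, smooth muscle and pericyte-like and fibroblast-like classes, because few ligands were detected in 20% of cells. The cause of the other changes was not tested. Of all genes in reticular-like cells, 3875 were called, 1766 with DESeq2, 2576 with the 20% filter, 1059 with no filter, 1112 without control 1 and 1426 without control 2.

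The deviations of libraries with the same number correlated by -0.04 to 0.14 within a class. With 2 libraries per group this cannot show whether they shared handling. The replicate block lost 1 of the 31 calls, Cxcl14 in reticular-like cells, and also called Ccl19, Ccl17 and Ccl7 there. In reticular-like cells 15 of 32 ligands did not reach 20 counts, and whether depth or low expression set this was not tested.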

Other observations

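Barcodes that the complexity filter removed held most of the counts of 2 neutrophil-attracting ligands. Of the 1491 Cxcl5 counts in barcodes with at least 1000 UMIs and 800 genes, 1043 (69.95%) lay in barcodes that the further filters left out, and of the 188 Cxcl3 counts 130 (69.1%) did. Nearly all of these, 1039 and 130 counts, lay in 133 barcodes with at least 2 megakaryocyte markers. The left-out Cxcl5 counts numbered 92 and 127 in the Lats2iECKO libraries and 483 and 341 in the controls, in 13 and 15 against 53 and 52 such barcodes. For Cxcl1, by comparison, 1.91% of the counts lay in left-out barcodes.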
